A study of Homo sapiens with 9 samples.

Results

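SAA1, LCN2 and PTX3 of the acute phase response and C1R, C1S, SERPING1, C3, CFB and CFD of the complement system make up a group of 9 genes, out of 17687 named genes on the array. They were taken by the gene symbols of the platform annotation. Each of the 9 had 1 probe set, so that the rule of taking the probe set with the highest mean left nothing to choose. The group was drawn up with earlier results of these arrays in view, and SAA1 was chosen by its measured fall with the Rab7 inhibitor. Its differences are therefore given as a description, with no test, and support nothing.

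The arrays come from ASC52telo, a single line of human adipose-derived stem cells (ASCs) that telomerase keeps dividing, after 10 days on a coat of rat tail collagen. All groups received the differentiation media (DM), which is meant to lead ASCs towards keratinocyte-like cells and holds EpiLife medium with its growth supplement, BMP-4, EGF, ascorbic acid 2-phosphate, hydrocortisone and all-trans retinoic acid. The DM group received DM alone, the vehicle group (DMSO) received DM and 0.1% DMSO, and the CID group received DM and 40 μM CID-1067700, a competitive inhibitor of the GTPase Rab7, with 3 arrays per group. The share of DMSO in the wells with CID is not stated, and nothing says whether each group's 3 samples were grown apart from each other. The p-values are thus a measure of how these samples scatter, and that scatter may be technical.

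Acute phase proteins are secreted in inflammation, above all by the liver, on signals from interleukin-6, interleukin-1 and related cytokines that act through STAT3, C/EBP factors and NF-kB. Adipose tissue and fibroblast-like cells also make several of them, and glucocorticoids such as hydrocortisone are known to induce SAA1 in several cell types. Complement is a cascade of plasma proteases that meets at C3. The proteases C1R and C1S open the classical pathway, CFB and CFD form and activate the enzyme of the alternative pathway, and the C1 inhibitor encoded by SERPING1 holds C1R and C1S in check.

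Each value is a log2 value made with the robust multi-array average (RMA), and an array's value is comparable with that of the same gene on the other arrays, not with another gene's. Group differences are log2 fold changes from limma over all 9 arrays in 1 fit. A gene is called when its p-value, adjusted over all 21448 probe sets by the Benjamini-Hochberg method, is under 0.05 and its linear fold change is at least 1.5. CID against DM and CID against DMSO use the same CID arrays and are not independent of each other. The medians of the arrays lay between 7.06 and 7.14, and arrays of 1 group correlated at 0.994 or above, so that no array stood apart. In these bulk samples, fewer cells of a type and less RNA per cell cannot be told apart.

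For CID against DM, 0.97% of all probe sets were called lower and 0.378% higher. For CID against DMSO these shares were 1.74% and 0.667%, and for DMSO against DM 0.00466% were called in either direction. Of the 8 genes other than SAA1, SERPING1 was the 1 called lower with CID, in both comparisons, and 0 were called higher. Of these 8 genes, 3 had CID arrays that did not overlap with the DM arrays, with 2 lower and 1 higher, against 17.9% of all probe sets. The count was the same against the DMSO arrays, where 21.4% of all probe sets did not overlap. The genes concerned were PTX3 and SERPING1, which were lower, and C3, which was higher. At an unadjusted p under 0.05 stood 4 of the 8 against DM and 3 against DMSO. Over all probe sets, 6.9% were lower and 5.74% higher at that p against DM, and 7.96% and 7.2% against DMSO. The median log2 fold change of the 8 genes was 0.06 against DM and -0.20 against DMSO, beside 0.01 and 0.02 over all probe sets.

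**Figure D1:**
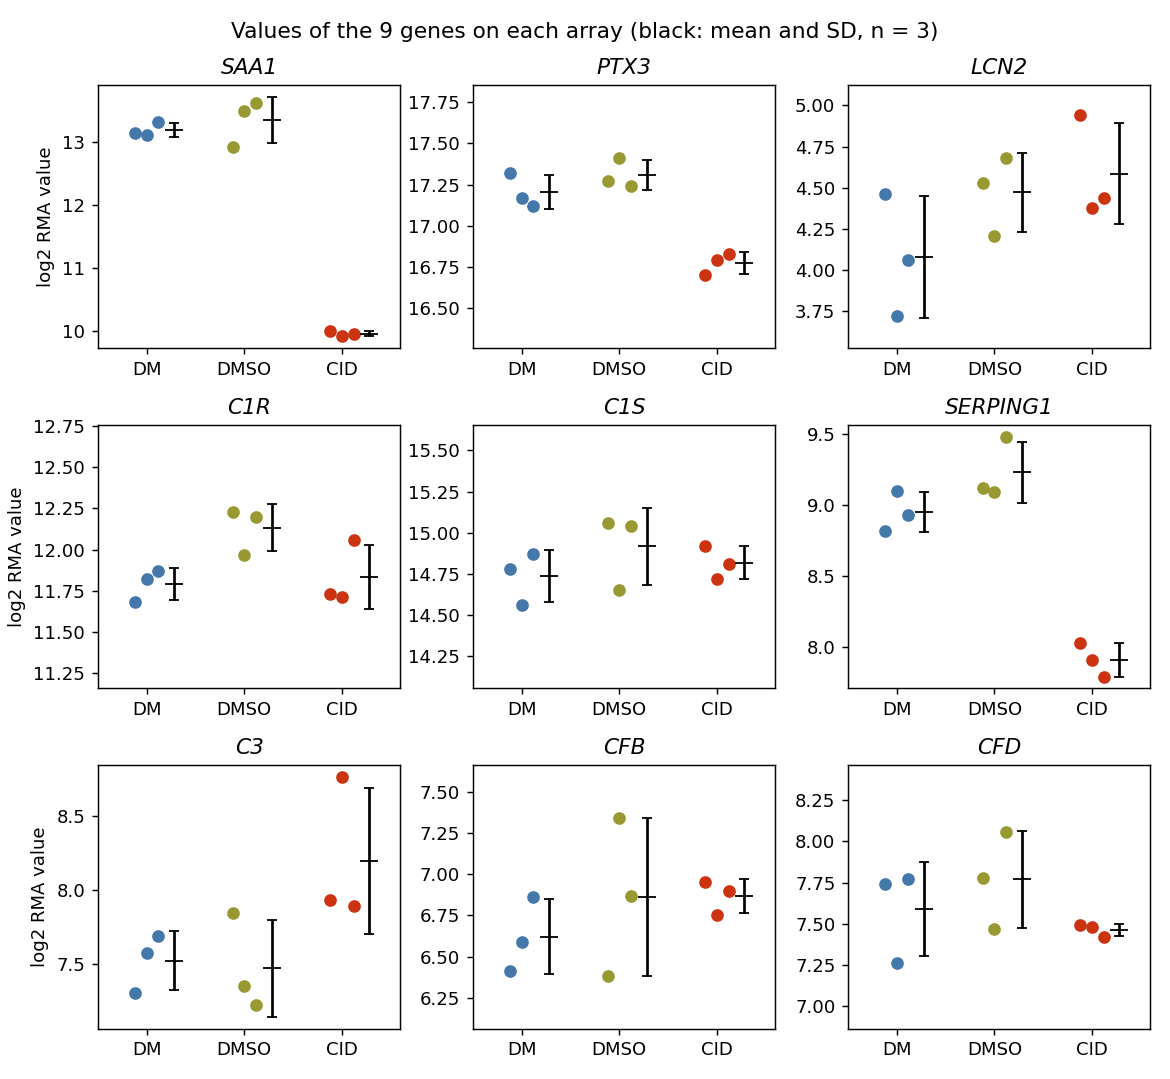
Log2 RMA value of each of the 9 genes (vertical axes) on each of the 9 arrays, by group (horizontal axes), with 1 point per array and the mean and SD (n = 3) in black. The scales differ between panels and each spans at least 1.6 log2 units. The CID points of SAA1, PTX3 and SERPING1 lie below all other points, those of C3 lie above all others, and for the other 5 genes the CID points overlap with those of both other groups.

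SAA1 encodes serum amyloid A1, an apolipoprotein of high-density lipoprotein in inflammation that also attracts leukocytes. Its probe set (TC1100006995.hg.1) read 13.14, 13.12 and 13.32 on the DM arrays, 12.93, 13.50 and 13.62 on the DMSO arrays and 10.00, 9.92 and 9.96 on the CID arrays. The CID arrays differed by less than 0.1 among themselves and lay 3.12 below the lowest DM array and 2.93 below the lowest DMSO array. The CID mean of 9.96 (SD 0.04) differs on the log2 scale by -3.23 from the DM mean (SD 0.11) and by -3.39 from the DMSO mean (SD 0.37), which are 9.40-fold and 10.5-fold lower levels with CID (n = 3 each). The DM and DMSO means differed by 0.16, which is less than the SD of the DMSO arrays. SAA2, a near-identical neighbour with 0 protein-coding genes between it and SAA1 on chromosome 11 in the RefSeq annotation, was not measured under its own symbol, so that the values as those of SAA1 alone are uncertain. The study names SAA2 apart from SAA1 on these arrays, so that SAA2 may have a probe set without a symbol here, and whether the SAA1 probe set also reads SAA2 was not tested.

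PTX3, the long pentraxin that stromal and immune cells secrete and that binds C1q, microbes and matrix, had 17.32, 17.17 and 17.12 with DM, 17.27, 17.41 and 17.24 with DMSO and 16.70, 16.79 and 16.83 with CID. All CID arrays were below all others, by 0.29 from the nearest DM array and by 0.41 from the nearest DMSO array. Its log2 fold change was -0.43 (SE 0.11, adjusted p = 0.108 from limma) against DM and -0.53 (SE 0.11, adjusted p = 0.0332) against DMSO. The second passed the p threshold but not the fold of 1.5, and without any single array of the comparison its adjusted p was between 0.0789 and 0.121.

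LCN2 encodes lipocalin-2, which binds bacterial siderophores and so keeps iron from microbes. It was among the dim probe sets, which here means a mean over the 9 arrays below 5.40, where arrays resolve differences poorly. Its values were 4.46, 3.72 and 4.06 with DM, 4.53, 4.21 and 4.68 with DMSO and 4.94, 4.38 and 4.44 with CID, and every pair of groups overlapped. In limma its log2 fold change was 0.51 (95% interval 0.04 to 0.98, adjusted p = 0.354 from limma) against DM and 0.11 (-0.36 to 0.58, adjusted p = 0.858) against DMSO. These intervals do not show that LCN2 was equal between the groups, and at this signal a fall could hardly register.

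The promoters of 5 of the 9 genes, C1R, CFB, CFD, LCN2 and PTX3, were matched in RefSeq on GRCh38.p14. The 250 bases before the start are shown for PTX3, LCN2 and CFB, since these genes are textbook targets of NF-kB or C/EBP factors. They were also chosen because their log2 fold changes for CID against DM had different signs, at -0.43, 0.51 and 0.25. None of these genes was called in either comparison with CID. LCN2 was dim, and the limma interval of CFB against DM ran from -0.23 to 0.72. Against DMSO, LCN2 and CFB differed by 0.11 and 0.00. A difference in sign between these genes is thus not established. Capitals mark matches to the NF-kB letters GGGNNNNNCC or the C/EBP letters TTNNGCAA on either strand, and adjoining matches form 1 run.
PTX3, chr3:157436600-157436849, plus strand: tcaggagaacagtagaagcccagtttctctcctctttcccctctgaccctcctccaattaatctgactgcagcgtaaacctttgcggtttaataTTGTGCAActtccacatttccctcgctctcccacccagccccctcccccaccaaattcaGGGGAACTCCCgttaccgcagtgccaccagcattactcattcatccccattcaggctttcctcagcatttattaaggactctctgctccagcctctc
LCN2, chr9:128149203-128149452, plus strand: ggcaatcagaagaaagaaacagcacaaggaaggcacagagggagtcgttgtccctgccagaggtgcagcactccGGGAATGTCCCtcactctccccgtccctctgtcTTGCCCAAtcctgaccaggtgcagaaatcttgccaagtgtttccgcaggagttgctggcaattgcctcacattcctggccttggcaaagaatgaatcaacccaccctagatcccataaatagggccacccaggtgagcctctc
CFB, chr6:31945845-31946094, plus strand: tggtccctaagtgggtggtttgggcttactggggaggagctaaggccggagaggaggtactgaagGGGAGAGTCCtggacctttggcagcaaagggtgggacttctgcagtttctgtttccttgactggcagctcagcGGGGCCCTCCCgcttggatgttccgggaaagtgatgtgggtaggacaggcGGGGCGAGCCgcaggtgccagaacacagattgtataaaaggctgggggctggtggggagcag
In PTX3 the NF-kB run begins 97 bases before the start and the C/EBP match 156 bases before it. In LCN2 they begin 176 and 143 bases before the start, and in CFB the NF-kB runs begin 185, 112 and 62 bases before it, with 0 C/EBP matches. The NF-kB letters are in 54.4% and the C/EBP letters in 9.05% of the 35116 promoter windows of this length, so that the first are common by their letters alone. A match is a description of letters, and its use in these cells was not measured.

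SERPING1 encodes the C1 inhibitor, a serpin that inactivates C1R and C1S and also restrains kallikrein of the kinin system. Its probe set (TC1100007684.hg.1) read 8.82, 9.10 and 8.93 with DM, 9.12, 9.09 and 9.48 with DMSO and 8.03, 7.91 and 7.79 with CID. All CID arrays were below all others, by 0.79 from the lowest DM array and by 1.06 from the lowest DMSO array. SERPING1 fell 2.06-fold against DM (-1.04 on the log2 scale with SE 0.14 and an adjusted p of 0.00605 in limma) and 2.50-fold against DMSO (-1.32, SE 0.14, adjusted p = 0.00117). It stayed called without any single array of either comparison, with the highest adjusted p at 0.0320 against DM and 0.00933 against DMSO, in both cases without CID array 3. The call was lost with the methods' t-test after Benjamini-Hochberg adjustment, an alternative fitted to each probe set alone (adjusted p = 0.130 and 0.0967), and where a log2 fold change of 1.5 was required. DMSO and DM overlapped, with a difference of 0.28 (adjusted p = 0.751 from limma). The study's own list of changed genes for CID against DM, made with other software, does not hold SERPING1.

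C1R and C1S, the proteases that SERPING1 inhibits, lie side by side on chromosome 12, with 0 protein-coding genes between them. C1R had 11.68, 11.82 and 11.87 with DM, 12.23, 11.97 and 12.20 with DMSO and 11.73, 11.71 and 12.06 with CID. C1S had 14.78, 14.56 and 14.87 with DM, 15.06, 14.65 and 15.04 with DMSO and 14.92, 14.72 and 14.81 with CID. Neither separated CID from DM. The log2 fold change of C1R was 0.04 (95% interval -0.26 to 0.34, adjusted p = 0.933 from limma) against DM and -0.30 (SE 0.14, adjusted p = 0.330) against DMSO. For C1S the values were 0.08 (-0.24 to 0.40, adjusted p = 0.871) and -0.10 (-0.42 to 0.22, adjusted p = 0.808). The intervals of both genes against DM do not reach the -1.04 of their inhibitor SERPING1, and the difference between the genes was not tested.

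C1R was also the member that separated the vehicle from DM, with all DMSO arrays above all DM arrays by 0.10 or more, where 11.8% of all probe sets did not overlap. The log2 fold change was 0.34 (95% interval 0.04 to 0.64, adjusted p = 0.682 from limma) and did not pass. For DMSO against DM, 0 of the 9 genes were called by limma, 1 of them had an unadjusted p under 0.05, as 6.98% of all probe sets did, and their log2 fold changes ran from -0.05 for C3 to 0.39 for LCN2.

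C3 is the protein on which all complement pathways converge, and its cleavage products coat targets and call in leukocytes. Its values were 7.30, 7.57 and 7.69 with DM, 7.84, 7.35 and 7.22 with DMSO and 7.93, 8.76 and 7.89 with CID. All CID arrays were above all others, but the nearest DMSO array was only 0.05 below them, and the CID arrays had an SD of 0.49. Its log2 fold change was 0.67 (SE 0.24, adjusted p = 0.256 from limma) against DM and 0.72 (SE 0.24, adjusted p = 0.168) against DMSO. Without the second CID array, which was the highest, it was 0.39 and 0.44. C3 was the one member whose CID mean was above both other means by more than 0.5 on the log2 scale, yet it did not pass the test.

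CFB carries the protease of the alternative pathway's C3 convertase, and its gene lies near C2 on chromosome 6, with 1 protein-coding gene between them. It had 6.41, 6.59 and 6.86 with DM, 6.38, 7.34 and 6.87 with DMSO and 6.95, 6.75 and 6.90 with CID, and the groups overlapped. In limma its log2 fold change was 0.25 (95% interval -0.23 to 0.72, adjusted p = 0.693 from limma) against DM and 0.00 (-0.47 to 0.48, adjusted p = 0.995) against DMSO. CFD, the protease that cleaves CFB and an adipokine under its other name adipsin, had 7.74, 7.26 and 7.77 with DM, 7.78, 7.47 and 8.06 with DMSO and 7.49, 7.48 and 7.42 with CID. The CID arrays lay within the range of the DM arrays and within 0.1 of each other. The log2 fold change of CFD was -0.13 (-0.52 to 0.26, adjusted p = 0.820 from limma) against DM and -0.31 (-0.70 to 0.08, adjusted p = 0.460) against DMSO.

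**Figure D2:**
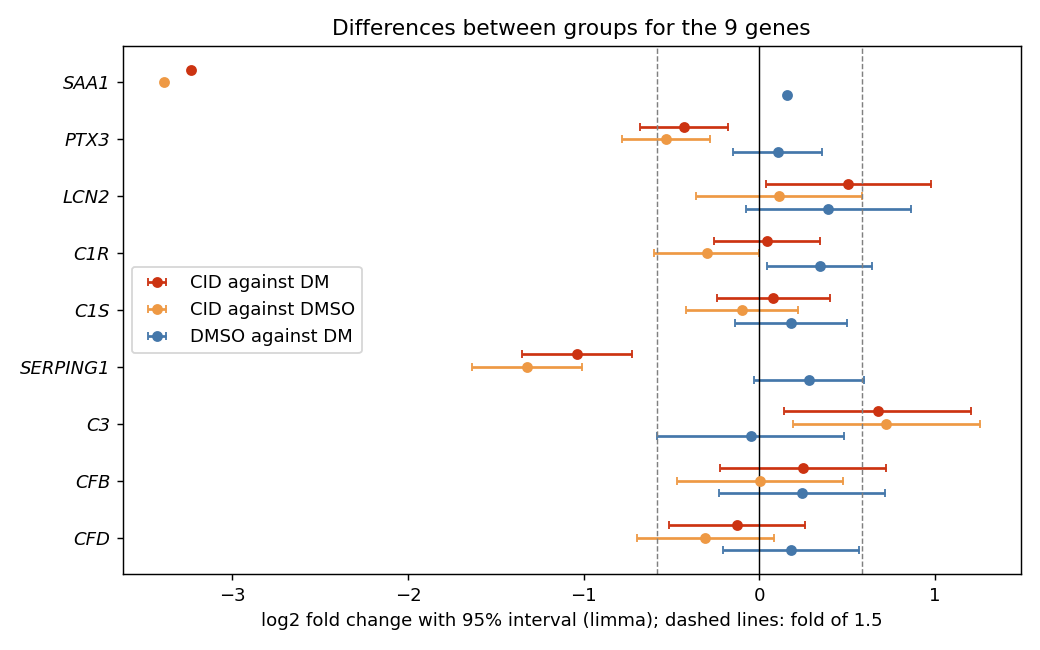
Log2 fold change (horizontal axis) of each of the 9 genes for CID against DM, CID against DMSO and DMSO against DM, with the 95% interval from limma, except for SAA1, and dashed lines at a fold of 1.5. SAA1 and SERPING1 below and C3 above lie beyond the dashed lines in both comparisons with CID, at -3.23, -1.04 and 0.67 against DM, of which C3 did not pass the test, and the DMSO against DM points all lie between -0.05 and 0.39.

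The complement system as a whole was looked at in a list of 59 genes, of which 53 were measured and 27 were dim. The list was written with earlier results of these arrays known and holds the 6 complement members. SERPING1 was the 1 gene called lower and 0 were called higher, against DM and against DMSO alike. Over all probe sets, 0.97% and 1.74% were called lower and 0.378% and 0.667% higher. At an unadjusted p under 0.05 in limma, 2 of the 53 were lower and 1 was higher against DM, and 3 were lower and 5 higher against DMSO, beside 6.9% and 5.74%, and 7.96% and 7.2%, of all probe sets. The medians of the list were 0.04 and -0.0033.

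By role, the list had 17 measured genes of the classical and lectin pathways, with 0 called in either comparison. C1RL, a protease akin to C1R, differed by -0.02 and -0.19. C4A, whose product joins C2 in the C3 convertase of these pathways, differed by -0.48 (adjusted p = 0.0972 from limma) and -0.34 (adjusted p = 0.209), and as C4B is a near-identical copy its value is uncertain. C2 itself differed by -0.12 and -0.05. Of the 4 genes of the alternative pathway 0 were called, and of the 7 of the terminal pathway, which builds the membrane attack complex, 0 were called with 6 dim. C5, the one that was not dim, differed by -0.27 and -0.23.

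Of the 15 measured inhibitors, 8 were dim and SERPING1 was the 1 called. The membrane-bound inhibitors CD46, CD55 and CD59, which protect cells from their own complement, differed by -0.23, -0.12 and -0.13 against DM and by -0.05, 0.20 and -0.05 against DMSO. CFI, the protease that inactivates C3b, differed by 0.16 and 0.37. CLU, a soluble inhibitor of the terminal pathway, was not measured under its symbol. Of the 10 complement receptors, 7 were dim and 0 were called, and C1QBP, a C1q-binding protein that is mostly mitochondrial, differed by 0.03 and -0.03.

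**Figure D3:**
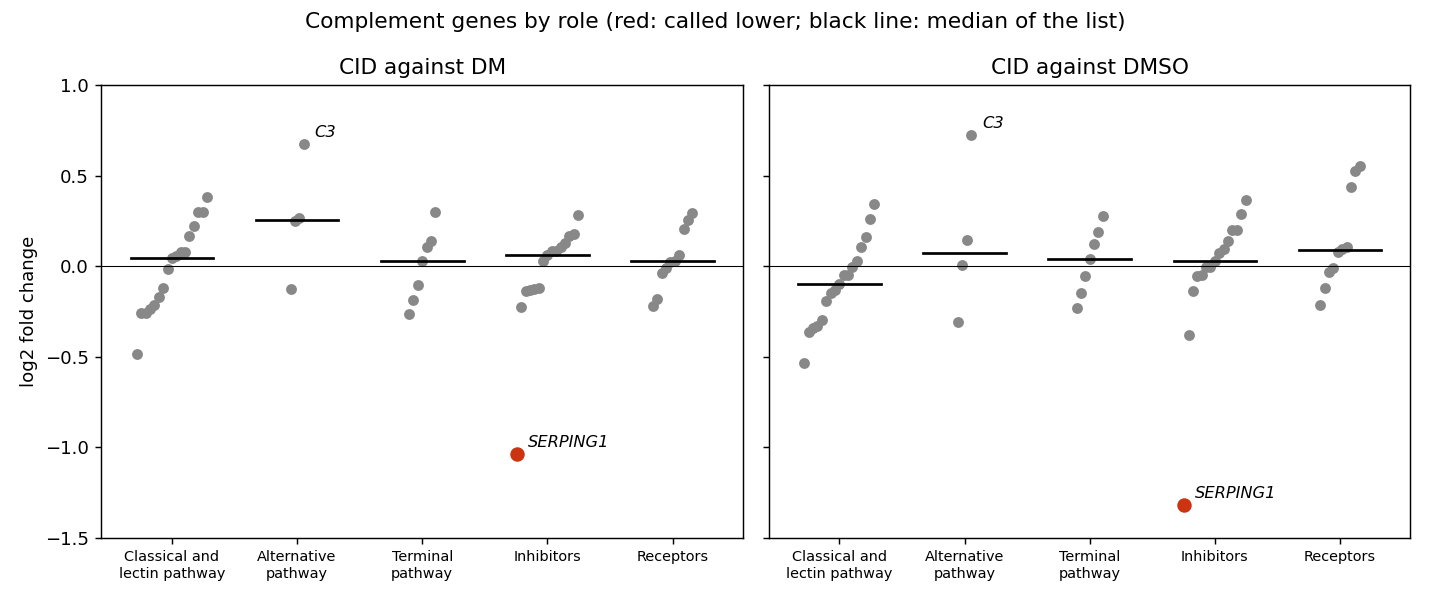
Log2 fold change (vertical axes) of the 53 measured complement genes by role (horizontal axes), with 1 point per gene, against DM on the left and against DMSO on the right. The red point is SERPING1, at -1.04 and -1.32, the 1 gene called in each panel, and C3 is the highest point in each, at 0.67 and 0.72, without passing the test.

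A list of 40 acute phase genes had 35 measured genes, 19 of them dim. Among the 34 other than SAA1, 1 was called lower against DM and 2 against DMSO, beside 0.97% and 1.74% of all probe sets. Of the 34, 0 were called higher, and the medians were 0.09 and 0.06. SERPING1 was called in both comparisons, and HP was the second against DMSO. HP encodes the hemoglobin-binding protein haptoglobin. HP had 6.81, 6.53 and 6.85 with DM, 6.97, 6.47 and 6.87 with DMSO and 5.81, 6.17 and 5.98 with CID, with all CID arrays below all others. Its log2 fold change was -0.74 (adjusted p = 0.0546 from limma) against DM and -0.78 (adjusted p = 0.0302) against DMSO. The second call was lost without CID array 1 or 3 or without DMSO array 1 or 3, with an adjusted p of up to 0.110.

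Of the 35 measured acute phase genes, 19 were dim, with CRP among them. CRP, the short pentraxin that marks inflammation in blood, had group means of 3.30 with DM, 3.16 with DMSO and 3.30 with CID. ORM1, FGA, FGB, FGG and LBP were likewise dim. SAA4 and APCS were not measured under their symbols. Among those that were not dim, SERPINA3, an inhibitor of neutrophil and mast cell proteases, differed by 0.31 and 0.26, HAMP, which encodes the iron hormone hepcidin, by -0.48 and -0.43, and TNFAIP6, whose product binds hyaluronan and PTX3, by -0.40 and -0.40. None of these 3 genes passed the test by limma. At an unadjusted p under 0.05, 5 of the 34 genes were lower and 3 higher against DM, and 6 were lower and 2 higher against DMSO, beside 6.9% and 5.74%, and 7.96% and 7.2%, of all probe sets.

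The receptors and partners of the acute phase members gave 0 calls by limma in either comparison, for 7 genes of SAA receptors, 4 partners of LCN2 and 7 measured genes of pentraxins and their partners. Of the 7 SAA receptors, 2 were lower at an unadjusted p under 0.05 against DM, where 6.9% of all probe sets were, and 3 against DMSO, where 7.96% were, with list medians of -0.18 and -0.23. TLR4, the lipopolysaccharide receptor, differed by -0.61 (adjusted p = 0.0664) and -0.52 (adjusted p = 0.0859). SCARB1, the receptor of high-density lipoprotein, differed by -0.82 (adjusted p = 0.0660) and -0.67 (adjusted p = 0.0949). FPR2, through which SAA1 attracts leukocytes, was dim.

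There were 16 measured cytokines and cytokine receptors that induce acute phase genes, and TNF and TNFRSF1B were not measured under their symbols. At an unadjusted p under 0.05 in limma, 5 of the 16 were lower and 2 higher against DM. Over all probe sets, 6.9% were lower and 5.74% higher. Against DMSO 3 were lower and 1 higher, beside 7.96% and 7.2%. By the full rule 0 were called against DM, and 2 were called lower against DMSO, where 1.74% of all probe sets were. These were LIFR and OSMR, the receptor chains for leukemia inhibitory factor and oncostatin M, which signal through STAT3 together with IL6ST. LIFR had 13.81, 13.30 and 13.31 with DM, 13.63, 14.05 and 13.98 with DMSO and 12.82, 12.73 and 12.82 with CID. It fell by 1.10 on the log2 scale against DMSO (adjusted p = 0.00615 from limma), a call that held without any single array, and differed by -0.68 from DM (adjusted p = 0.0766).

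OSMR had 12.79, 12.86 and 12.65 with DM, 12.76, 12.82 and 12.84 with DMSO and 12.11, 12.34 and 12.14 with CID. It fell by 0.61 against DMSO on the log2 scale (adjusted p = 0.0199 from limma). That call was lost without CID array 1 or 3 or DMSO array 2 or 3, with an adjusted p of up to 0.0798. Against DM it differed by -0.57 (adjusted p = 0.0406), which is below the fold of 1.5. The CID arrays of LIFR and OSMR lay below all others.

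IL6 itself had 7.18, 7.07 and 7.08 with DM, 6.44, 6.85 and 6.36 with DMSO and 5.60, 6.60 and 6.30 with CID. The CID arrays overlapped with the DMSO arrays but not with the DM arrays. All DMSO arrays also lay below all DM arrays, with a log2 fold change of -0.56 for DMSO against DM that was not called. The log2 fold change was -0.94 (adjusted p = 0.0761 from limma) against DM and -0.38 (adjusted p = 0.476) against DMSO. The shared signalling chain IL6ST differed by -0.09 and -0.23, and the receptor of interleukin-1, IL1R1, by 0.36 and 0.18.

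Among 14 measured transcription regulators of acute phase genes, 0 were called against DM. At an unadjusted p under 0.05 in limma, 2 of the 14 were lower and 1 higher against DM, beside 6.9% and 5.74% of all probe sets. The comparison with DMSO had 3 lower and 0 higher, beside 7.96% and 7.2%. CEBPD was the 1 called lower against DMSO, where 1.74% of all probe sets were called lower. CEBPD encodes C/EBP-delta, a factor that interleukin-6 and glucocorticoids induce and that acts on acute phase promoters. It had 9.44, 9.43 and 9.47 with DM, 9.81, 9.47 and 9.23 with DMSO and 8.91, 8.75 and 8.66 with CID, with all CID arrays below all others. Its log2 fold change was -0.67 (adjusted p = 0.0602 from limma) against DM and -0.73 (adjusted p = 0.0290) against DMSO. The call held in 1 of 6 fits that each left out 1 array, and without CID array 3 the adjusted p was 0.107.

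STAT3 differed by -0.36 (adjusted p = 0.221 from limma) from DM and by -0.55 (adjusted p = 0.0383) from DMSO. The second was below the fold of 1.5, and without any single array its adjusted p was between 0.0534 and 0.138. The NF-kB subunits NFKB1 and RELA differed by 0.06 and 0.34 from DM and by -0.03 and 0.23 from DMSO, and NFKBIA, an NF-kB target and inhibitor, by 0.05 and 0.01. CEBPB differed by -0.19 and -0.09, and NR3C1, the glucocorticoid receptor, by -0.06 and -0.10. For DMSO against DM, 0 genes of these lists were called.

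**Figure D4:**
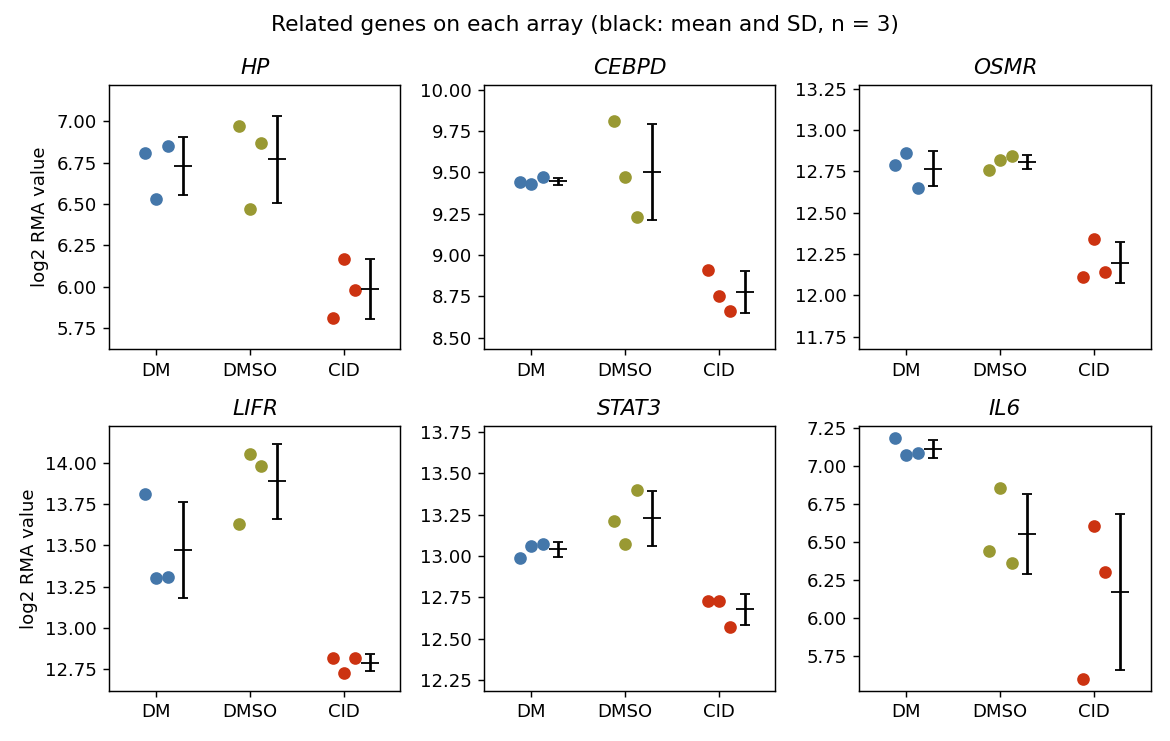
Log2 RMA value (vertical axes) of HP, CEBPD, OSMR, LIFR, STAT3 and IL6 on each of the 9 arrays, by group (horizontal axes), with 1 point per array and the mean and SD (n = 3) in black. For the first 5 genes the CID points lie below all others, and for IL6 the CID and DMSO points overlap, with CID at 5.60, 6.60 and 6.30.

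The genes whose values were most like those of SAA1 over the 9 arrays, by Pearson's r among 17686 genes, were IFITM3 (0.993), SLC39A8 (0.991), TNC (0.991), SLITRK1 (0.991) and MYL6 (0.988). The arrays form CID and the rest for each of them, so that r mainly carries this 1 difference. IFITM3 encodes an interferon-induced membrane protein of endosomes, SLC39A8 a zinc importer, TNC a matrix glycoprotein of wounds, SLITRK1 a neuronal membrane protein and MYL6 a myosin light chain. Their log2 fold changes against DM were -0.99, -0.76, -3.09, -1.64 and -0.54, beside -3.23 for SAA1.

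The labelled cell type was checked by markers. All 10 stromal markers were above the limit for dim probe sets. The log2 of their summed level was 18.38 to 18.47 with DM, 18.52 to 18.55 with DMSO and 18.14 to 18.18 with CID. The CID range lay below both others, and the DMSO range lay above that of DM. Of these 10 markers, 1 was called lower against DM, where 0.97% of all probe sets were. It was PDGFRA, and that call held in 1 of 6 fits that each left out 1 array. Against DMSO 4 were called lower, where 1.74% of all probe sets were. Of these, PDGFRA, PDGFRB and LUM held in all 6 such fits and COL1A2 in 0. The markers did not all fall, as the log2 fold changes of the 10 ran from -0.73 to 0.39 against DM. Against DMSO they ran from -1.20 to 0.45, and 0 were called higher in either comparison. All 8 measured keratinocyte markers were dim, with summed levels of 7.30 to 7.53, 7.27 to 7.53 and 7.34 to 7.46. For the 8 hepatocyte markers, 5 of them dim, the levels were 7.77 to 7.87, 7.72 to 7.95 and 7.84 to 8.11. For the 8 macrophage markers, 3 of them dim, they were 12.26 to 12.61, 12.35 to 12.72 and 12.32 to 12.50. The 6 measured neutrophil markers, 5 of them dim, had 7.13 to 7.18, 7.22 to 7.28 and 7.13 to 7.34, and the 6 adipocyte markers, 3 of them dim, 11.26 to 11.44, 11.14 to 11.76 and 11.37 to 11.74. The part of the lower stromal sum in the differences of SAA1 and SERPING1 was not tested.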

How the data were processed

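Clariom S Human arrays were used for the total RNA of 9 samples, 3 per group. In Transcriptome Analysis Console the authors ran RMA, which gives each probe set 1 value, and deposited the log2 values. Neither the version of the program nor the variant of RMA is known from the sources used here. RMA brings the arrays to 1 distribution, so that a shift common to all genes would be lost.

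With limma (version 3.58.1, under R 4.3.3), group means were fitted over all 9 arrays, with 6 residual degrees of freedom. The fit was tested on simulated data. Of 21448 probe sets, 17709 had 1 symbol and 3739 none. The platform annotation that gives the symbols can be out of date, so that a gene not measured under its symbol may have an unnamed probe set. Probe sets with means below 5.40, the lowest tertile, are called dim. The number of arrays limits the precision. The rule for named genes took the 9 members, up to 4 called genes of largest fold in each list, the paralogs and partners SAA2, SAA4, C2, C4A, C4B, CRP and APCS, the inhibitors CFI, CD46, CD55 and CD59, and the 5 genes most like SAA1. Genes of the lists outside this rule, such as IL6, STAT3, TLR4 and SCARB1, were chosen after their values were seen. The members and lists were chosen with earlier results of these data known, and one further item is not reported here. Alternatives were other samples in the fit, fold thresholds, variance prior, normalizations, a filter on dim probe sets, a replicate block, an ordinary t-test and leaving out each array. Figures were drawn with matplotlib version 3.10.9.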

Additional observations from a re-analysis of the deposited data

How the results depend on the processing

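With a log2 fold change of at least 1.5 as the threshold, 37 probe sets were lower and 3 higher against DM and 45 and 8 against DMSO, with 1 member counted in each and 0 lower for DMSO against DM. With a trended and robust prior, 329 were lower and 147 higher against DM, and 5 were lower for DMSO against DM. With only the arrays of the groups compared, 53 were higher against DM and 0 lower for DMSO against DM. An ordinary t-test with Benjamini-Hochberg adjustment gave 2 lower and 0 higher against DM with 1 member, 17 and 4 against DMSO with 0 members, and 0 lower for DMSO against DM. SERPING1 was lost there (adjusted p = 0.130 and 0.0967) and at the log2 threshold of 1.5. At the unadjusted threshold that t-test called 384 lower and 186 higher against DM and 496 and 257 against DMSO, with 2 members in each. Without a fold threshold PTX3 was called against DMSO.

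Leaving out each array in turn gave 102 to 178 lower and 25 to 46 higher against DM, 194 to 296 and 65 to 109 against DMSO, and 0 to 1 lower for DMSO against DM. In these fits the log2 fold change against DM ran from -0.07 to 0.10 for C1R and from -0.01 to 0.15 for C1S, that against DMSO from -0.24 to 0.24 for CFB and from -0.06 to 0.22 for LCN2, and that of C3 for DMSO against DM from -0.24 to 0.07, so that these changed sign. CFB against DMSO was -0.03 with quantile normalization applied again and -0.03 with median centring, and C3 for DMSO against DM was 0.00 with median centring. The cause was not tested.

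Deviations of arrays with the same replicate number correlated only between -0.05 and 0.07. Between CID and DMSO these correlations were 0.068, 0.065 and 0.068, and those of arrays with different numbers lay between -0.049 and -0.017. Whether the numbers pair the samples is not known. With a replicate block, 201 were lower and 74 higher against DM, 362 and 145 against DMSO and 0 lower for DMSO against DM, with 2, 2 and 0 members counted. Counts of members include SAA1, whose difference is a description. A second probe set could not be tried, since each member has 1. Signal limits LCN2, CRP and the other dim genes.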
